A study of Homo sapiens with 6 samples.

Results

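Genes of 10 chemokines and cytokines were followed in H2087-LCC cells: the CXC chemokines CXCL1, CXCL2, CXCL3, CXCL5 and CXCL16, the CC chemokines CCL2 and CCL20, and the IL6 family cytokines IL6, IL11 and LIF. They were chosen by symbol, and all 10 are among the 21293 genes of the table. Genes were tested where the mean normalized count reached 10, which 14395 genes did, 8 of the 10 among them. H2087-LCC is a latency competent cancer (LCC) population selected in mice from the human lung adenocarcinoma (LUAD) line H2087, labelled as a dormant metastatic derivative. RNA-seq of polyA RNA was made in 3 groups of 2 libraries: cells kept for 3 days in SB505124 (SB), which blocks the kinase of the receptor TGFBR1 and so the TGFβ signal, cells kept for 3 days in TGFβ, and cells kept for 7 days in TGFβ. No untreated library is among the 6. SB was sampled at 3 days and not at 7, so treatment and time in culture cannot be told apart in the comparisons of 7 days of TGFβ with SB or with 3 days of TGFβ. The study describes libraries of the same group as technical replicates, so the errors and p-values below measure the spread between these libraries and may not cover the spread between cultures.

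Chemokines are small secreted proteins that attract leukocytes through receptors coupled to G proteins. CXCL1, CXCL2, CXCL3 and CXCL5 attract neutrophils through CXCR2, CCL2 attracts monocytes through CCR2, CCL20 attracts cells that carry CCR6, and CXCL16 is made as a membrane protein whose released form attracts cells that carry CXCR6. IL6, IL11 and LIF each bind a receptor chain of their own and then the shared chain IL6ST, which signals through JAK kinases and STAT3. Many of these genes are known targets of NF-κB, the factor that IL1 and TNF activate, while IL11 is a known target of TGFβ in epithelial and mesenchymal cells.

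On the hg19 build (GRCh37) that the authors mapped to, CXCL1 lies at chr4:74735110-74737025 on the plus strand, and CXCL5 at chr4:74861359-74864394, CXCL3 at chr4:74902306-74904524 and CXCL2 at chr4:74962757-74964913 lie near it on the minus strand. CXCL16 lies at chr17:4636828-4643223 (minus strand), CCL2 at chr17:32582293-32584227 (plus), CCL20 at chr2:228670455-228682280 (plus), IL6 at chr7:22765503-22771621 (plus), IL11 at chr19:55875750-55881831 (minus) and LIF at chr22:30636442-30642748 (minus). CXCL1, CXCL2 and CXCL3 are close copies. Of all stretches of 50 bases, the length of a read, in their annotated transcripts, 4.57% in CXCL1, 13.4% in CXCL2 and 6.01% in CXCL3 were also found in another of the 3 genes, and only uniquely mapped reads were counted. The level of each of the 3 is therefore a little uncertain against the other 2.

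The 130 bases before the transcription start are shown for the 7 of the 10 genes found in the RefSeq promoter table (build GRCh38.p14), so that the letters of known motifs can be set beside the changes of each gene in TGFβ. Capitals mark the letters of an NF-κB motif (GGG and TTTCC with any 2 bases between them), an AP-1 motif (TGANTCA) or a TATA box (TATAAA), searched on both strands in the 250 bases before the start, with no overlap between matches. Each line is written 5′ to 3′ on the strand of the gene and ends at the last base before the start.
CXCL1, chr4:73869263-73869392, plus strand: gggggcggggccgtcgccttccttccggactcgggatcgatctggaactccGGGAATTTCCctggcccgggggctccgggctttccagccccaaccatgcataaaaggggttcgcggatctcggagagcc
CXCL2, chr4:74099196-74099325, minus strand: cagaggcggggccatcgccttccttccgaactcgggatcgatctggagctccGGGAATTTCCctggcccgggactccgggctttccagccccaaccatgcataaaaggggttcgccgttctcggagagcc
CXCL3, chr4:74038690-74038819, minus strand: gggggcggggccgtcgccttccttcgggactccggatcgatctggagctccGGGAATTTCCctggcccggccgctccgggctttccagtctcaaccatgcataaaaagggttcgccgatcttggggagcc
CXCL5, chr4:73998678-73998807, minus strand: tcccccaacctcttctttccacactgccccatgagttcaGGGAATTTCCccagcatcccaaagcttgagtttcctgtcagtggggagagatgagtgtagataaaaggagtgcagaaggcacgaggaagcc
CCL20, chr2:227813712-227813841, plus strand: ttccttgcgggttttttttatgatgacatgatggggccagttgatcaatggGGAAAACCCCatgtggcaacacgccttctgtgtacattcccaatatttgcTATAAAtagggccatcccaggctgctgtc
IL6, chr7:22727070-22727199, plus strand: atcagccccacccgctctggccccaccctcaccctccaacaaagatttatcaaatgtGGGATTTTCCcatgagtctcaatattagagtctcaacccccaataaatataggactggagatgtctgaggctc
IL11, chr19:55370464-55370593, minus strand: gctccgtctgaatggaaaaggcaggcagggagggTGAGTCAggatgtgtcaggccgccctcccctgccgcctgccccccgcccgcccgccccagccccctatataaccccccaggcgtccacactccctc

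The NF-κB letters were found in 6 of these 7 genes, all but IL11, and in 2.12% of 27305 promoters of the same length. They stood at -79 to -70 from the start in CXCL1 and CXCL3, at -78 to -69 in CXCL2, at -91 to -82 in CXCL5, at -73 to -64 in IL6 and, on the other strand, at -79 to -70 in CCL20. The AP-1 letters were found in IL11 alone of the 7, at -96 to -90, and in 8.06% of all promoters. The TATA letters were found in CCL20 alone of the 7, and in 13% of all promoters. The short letters CAGAC, to which SMAD proteins bind, were found in 4 of the 7 (CXCL2, CXCL5, IL6 and IL11) and in 42.8% of all promoters. Over the 130 bases, CXCL1 was 92.4% identical to CXCL2 and 91.5% to CXCL3, CXCL2 was 87.8% identical to CXCL3, and CXCL5 was between 53.1% and 53.8% identical to the 3. A match of letters is a description of the sequence and not a measured binding site.

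**Figure D1:**
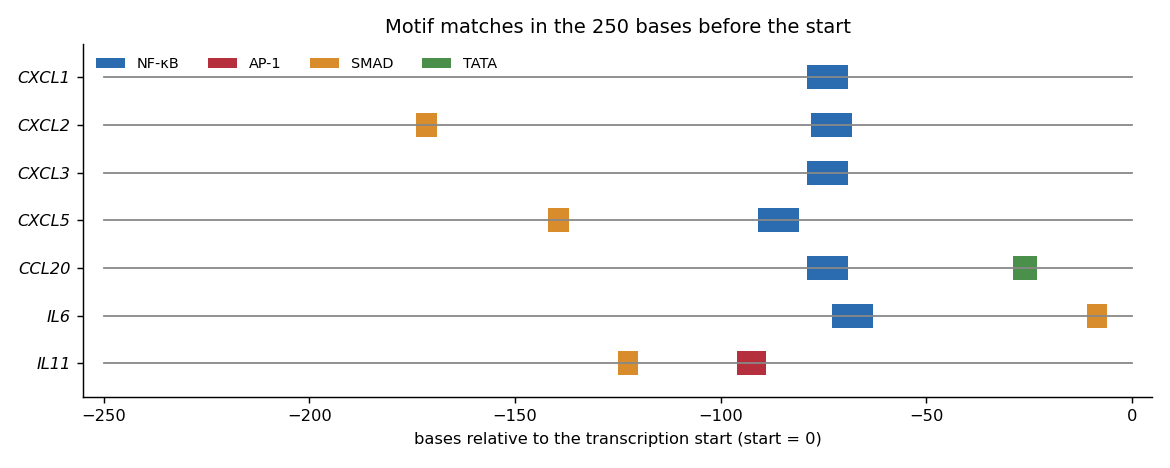
Motif letters before the transcription start of 7 genes. The horizontal axis gives the position in bases from the start, each grey line is a gene's 250 bases, and a coloured block is a match to the NF-κB, AP-1, SMAD or TATA letters on either strand. A block of NF-κB letters is seen between -91 and -64 in all genes but IL11, which holds the AP-1 letters at -96 to -90.

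The normalized counts of the 6 libraries summed to between 34306283 and 36340734, with an estimated 32000000 to 40000000 reads in each. The treatment was visible in known TGFβ targets: against SB, log2 differences after 3 and after 7 days were 3.17 and 3.07 for SMAD7, 2.42 and 3.40 for SKIL, and -4.18 and -5.54 for CDH1, each past the test. The 7 LUAD and lung lineage markers were present in every library, the lowest being SOX2 at 569 or more. Against SB 1 of them was higher (KRT7) and 4 were lower at each time. Of all genes tested, 14.9% were higher and 14% lower at 3 days, and 27.7% higher and 26.9% lower at 7 days. Of the blood cell markers, the leukocyte gene PTPRC was at 4 or below and the haemoglobin gene HBB was at 0 in every library, but CD68, of the lysosome, was between 4368 and 5113 and CSF1R, the receptor for a macrophage growth factor, rose from 34 and 31 in SB to 626 and 677 at 3 days and 1114 and 1032 at 7 days. All 10 blood cell markers of the table summed to between 4849 and 6142 in each library, most of it CD68. The 4 endothelial markers summed to 160 and 294 in SB, 93 and 109 at 3 days and 132 and 109 at 7 days. They did not move together. KDR was at 98 and 225 in SB, 26 and 31 at 3 days and 70 and 53 at 7 days. PECAM1 was at 41 and 36 in SB, 61 and 67 at 3 days and 56 and 53 at 7 days. VWF and CDH5 were at 20 or below in every library. The part of these markers in the results below was not tested. The SB libraries differed from each other more than the other pairs: of 11389 genes that averaged at least 100, 86 were over 2-fold apart in the SB pair (0.755%), 79 of them higher in SB library 2, against 2 in the 3-day pair and 4 in the 7-day pair. Several of the chemokines are among the genes that differed within the SB pair, and their values without each SB library are given beside them. In bulk RNA, fewer cells that make a transcript and less transcript in each cell cannot be told apart.

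In TGFβ, the CXC chemokines and CCL20 were lower than in SB, LIF was lower, IL11 was far higher, IL6 was higher at 3 days, and CCL2 was higher at 7 days. The test was limma on log2(normalized count + 1) over all 14395 genes, with Benjamini-Hochberg adjusted p under 0.05. At 3 days against SB, 2 of the 8 tested genes were higher (IL6 and IL11) and 5 lower (CXCL1, CXCL2, CXCL3, CCL20 and LIF), and CCL2 did not pass; of all genes tested, 29% passed, 14.9% higher and 14% lower. At 7 days against SB, 2 were higher (CCL2 and IL11) and the same 5 were lower, and IL6 did not pass; of all genes tested, 54.5% passed, 27.7% higher and 26.9% lower. At 7 days against 3 days, 2 were higher (CCL2 and IL11), 2 were lower (CCL20 and IL6) and 4 did not pass; of all genes tested, 33.2% passed, 17% higher and 16.2% lower. The median log2 difference of the 8 was -0.89 at 3 days and -0.89 at 7 days against SB, beside -0.022 and -0.00081 over all genes tested, and 0.098 at 7 days against 3 days, beside 0.019. Counting all 10 genes by their libraries alone, 9 did not overlap between 3 days and SB, 9 between 7 days and SB, and 8 between 7 and 3 days, while 63.2%, 77.5% and 69.1% of all genes tested did not overlap. Both comparisons with SB use the same SB libraries, so they are not independent of each other.

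**Figure D2:**
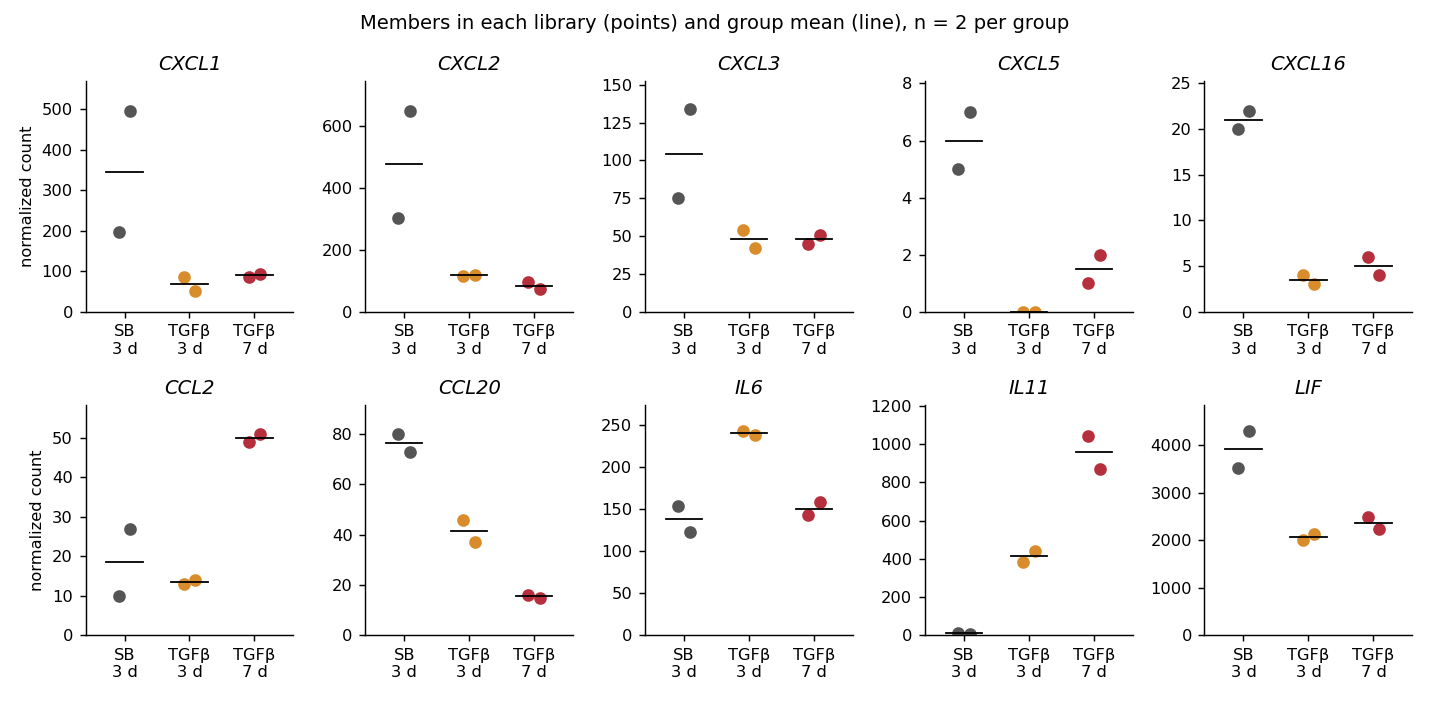
Normalized count (vertical axes, each from 0) of the 10 genes in each of the 6 libraries. Points are libraries, grey for SB at 3 days, orange for TGFβ at 3 days and red for TGFβ at 7 days, and the line is the mean of the 2 libraries. IL11 is near 0 in SB (13 and 8) and reaches 1045 and 869 at 7 days, while CXCL1, CXCL2, CXCL3, CXCL5, CXCL16, CCL20 and LIF are highest in SB.

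**Figure D3:**
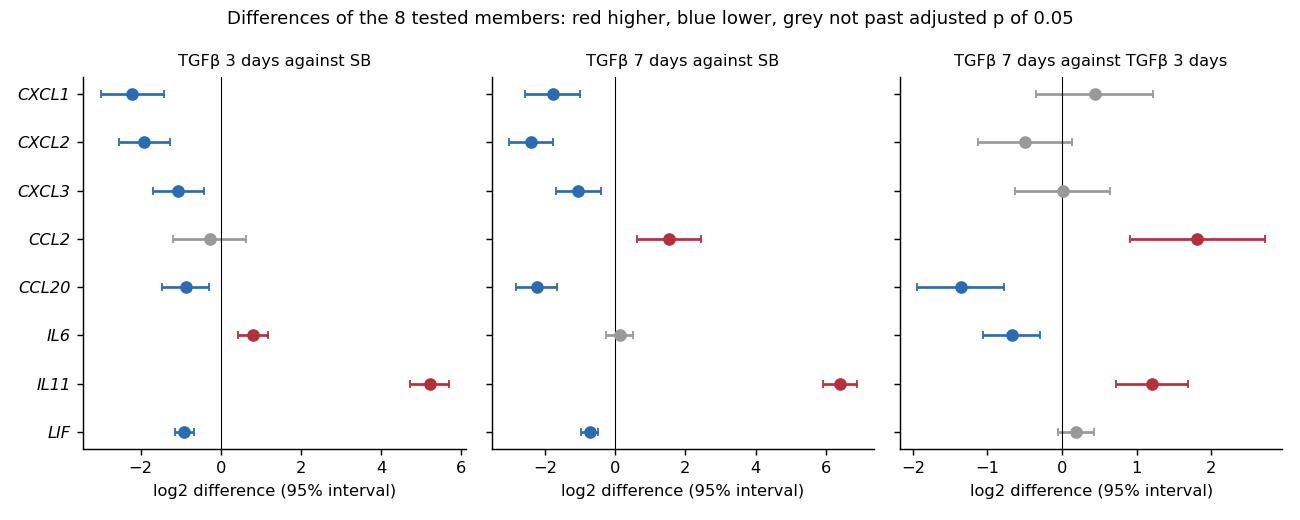
Log2 difference with its 95% interval (horizontal axes, each on its own scale) for the 8 tested genes in the 3 comparisons, from limma over 6 libraries. Red points are higher, blue points lower and grey points not past an adjusted p of 0.05. IL11 stands farthest to the right in both comparisons with SB, at 5.20 and 6.41.

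Of the CXCR2 ligands among the 10 genes, CXCL1, CXCL2 and CXCL3 fell in both comparisons with SB, and CXCL5 was not tested. CXCL1 was at 196 and 496 normalized counts in SB, 85 and 52 at 3 days of TGFβ and 87 and 94 at 7 days. Every TGFβ library was below both SB libraries, which were themselves 2.53-fold apart. The log2 difference of CXCL1 from SB was -2.21 (SE 0.358, adjusted p = 0.000651) at 3 days and -1.77 (SE 0.358, adjusted p = 0.00131) at 7 days, and between 7 and 3 days it was 0.44 (95% interval -0.35 to 1.22, adjusted p = 0.375). Leaving out each library in turn, the CXCL1 difference at 3 days ran from -2.88, without SB library 1, to -1.55, without SB library 2. At 7 days its lowest value was -2.44 and its highest -1.11, and it stayed past the test.

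CXCL2 was at 303 and 648 in SB, 115 and 120 at 3 days and 95 and 73 at 7 days. The groups did not overlap, and the order was SB, 3 days, 7 days. Its log2 difference from SB was -1.91 (SE 0.288, adjusted p = 0.000393) at 3 days and -2.40 (SE 0.288, adjusted p = 2.95e-05) at 7 days. Without SB library 1 these differences of CXCL2 were -2.45 and -2.94, and without SB library 2 they were -1.36 and -1.85, all past the test. Between 7 and 3 days it was -0.49 (95% interval -1.12 to 0.14, adjusted p = 0.213), which passed the test only when SB library 1 was left out of the fit (adjusted p = 0.0496). CXCL3 was at 75 and 134 in SB, 54 and 42 at 3 days and 45 and 51 at 7 days, the smallest fall of the 3 copies. Its log2 difference from SB was -1.06 (SE 0.289, adjusted p = 0.0170) at 3 days and -1.05 (SE 0.289, adjusted p = 0.00889) at 7 days. Without SB library 1 the differences of CXCL3 were -1.47 and -1.46. Both calls of CXCL3 were lost without SB library 2, where the differences were -0.64 (adjusted p = 0.116) and -0.64 (adjusted p = 0.0766), and when genes of low value were not filtered out (adjusted p = 0.0916 at 3 days, 0.0543 at 7 days). Between 7 and 3 days the difference of CXCL3 was 0.0082 (95% interval -0.62 to 0.64), and the libraries overlapped.

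CXCL5 and CXCL16 were too low for the filter. CXCL5 was at 5 and 7 in SB, listed at 0 in both 3-day libraries and at 1 and 2 at 7 days, which are values of a few reads. CXCL16 was at 20 and 22 in SB, 4 and 3 at 3 days and 6 and 4 at 7 days, with a mean over the 6 libraries of 9.83, just under the minimum of 10. Both were below SB in every TGFβ library. In the limma fit with no filter, the CXCL16 difference was -2.30 (adjusted p = 0.0106) at 3 days and -1.89 (adjusted p = 0.00829) at 7 days. In the same fit that of CXCL5 was -2.79 (adjusted p = 0.00848) and -1.50 (adjusted p = 0.0252). At counts of 0 to 7 the size of the CXCL5 difference depends on the 1 added before the log. No other added value was tried for it, so its values are not read as a measured fall. ADAM10 and ADAM17, the proteases that release CXCL16 from the membrane, did not pass at 3 days and rose at 7 days, ADAM10 by 0.48 and ADAM17 by 0.52 on the log2 scale (adjusted p = 0.000821 and 0.00143). Of the exon bases of CXCL5, 422 lie within the span of a long noncoding RNA gene on the opposite strand. In CXCL5 transcripts, 276 of 2387 stretches of 50 bases were also found in that gene. Of the exon bases of CXCL16, 76 lie within MED11 and 96 within ZMYND15, also on the opposite strand. The library kit does not mark strand, so reads of shared stretches cannot be told apart.

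The 2 CC chemokines went opposite ways. CCL2 was at 10 and 27 in SB, 13 and 14 at 3 days and 49 and 51 at 7 days. The 3-day libraries lay between the SB libraries, and both 7-day libraries were above all others. The log2 difference of CCL2 was -0.28 (95% interval -1.18 to 0.63, adjusted p = 0.659) at 3 days against SB, 1.54 (SE 0.414, adjusted p = 0.00783) at 7 days against SB and 1.82 (SE 0.414, adjusted p = 0.00650) at 7 days against 3 days. At 7 days against SB it ran from 0.86, without SB library 1, to 2.21, without SB library 2. Without the filter on low values the adjusted p of CCL2 was 0.0520 at 7 days against SB and 0.0588 against 3 days. With a mean of at least 50 CCL2 was not tested, and no other alternative ended either call.

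CCL20 was at 80 and 73 in SB, 46 and 37 at 3 days and 16 and 15 at 7 days. It fell in steps, with no overlap between the groups and with SB libraries that were close together. Its log2 difference was -0.87 (SE 0.268, adjusted p = 0.0292) at 3 days against SB, -2.23 (SE 0.268, adjusted p = 2.87e-05) at 7 days against SB and -1.36 (SE 0.268, adjusted p = 0.00295) at 7 days against 3 days. The call at 3 days was lost when any 1 of the 4 libraries compared was left out, with an adjusted p of up to 0.176, and without the filter (adjusted p = 0.0557). The calls of CCL20 at 7 days were kept under every alternative that tested it, the one exception being a mean of at least 50, under which it was not tested.

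**Figure D4:**
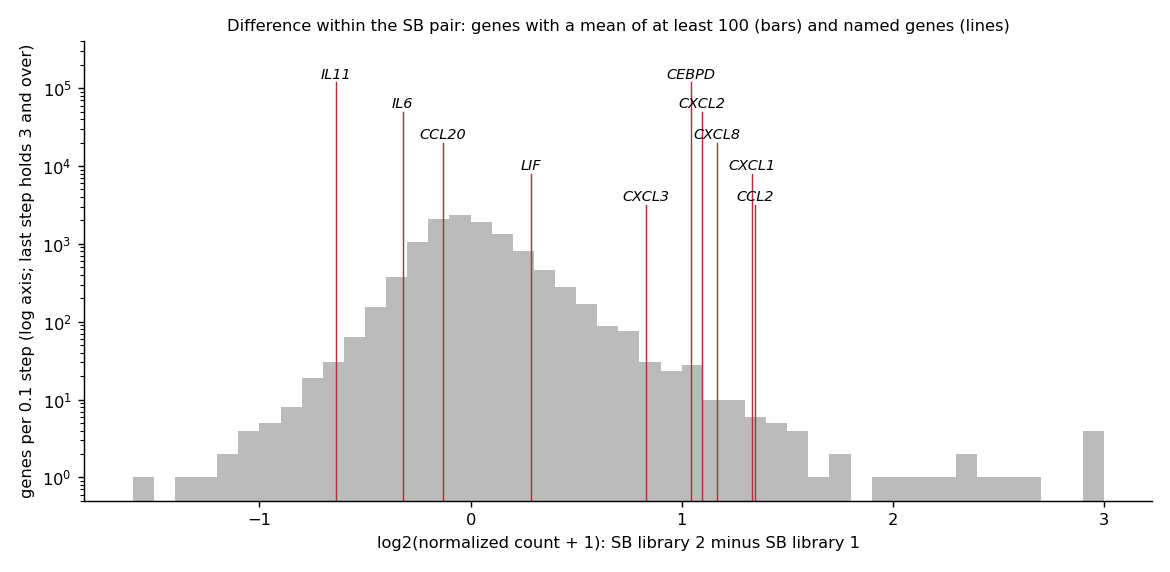
Difference within the SB pair (horizontal axis, log2 of SB library 2 minus SB library 1) for the 11389 genes that averaged at least 100, counted in steps of 0.1 on a logarithmic vertical axis. Red lines mark the 8 tested genes of the 10, with CXCL8 and CEBPD. CXCL3, CCL20 and CCL2 averaged 66.8, 44.5 and 27.3, so they are not among the genes of the bars, and counting noise is larger at such counts. CCL2, CXCL1, CXCL8, CXCL2 and CEBPD lie at 1.05 or above, and IL11, IL6 and CCL20 lie below 0.

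Of 30 other chemokine genes listed, 23 were in the table and 5 were high enough to be tested. At 3 days against SB none of the 5 was higher and 3 were lower, at 7 days 2 were higher and 2 lower, and at 7 days against 3 days 3 were higher and 1 lower. The shares of all genes tested that passed in these comparisons were 29%, 54.5% and 33.2%. CXCL8, another ligand of CXCR2 and the neutrophil chemokine with the highest count here, fell most at 7 days, from 1974 and 4438 in SB to 728 and 532 at 3 days and 310 and 344 at 7 days. Its log2 difference from SB was -2.25 (adjusted p = 9.17e-05) at 3 days and -3.18 (adjusted p = 2.46e-06) at 7 days, where it lay between -3.76 and -2.59 when each library was left out in turn. CX3CL1, a chemokine bound to the membrane that draws cells with CX3CR1, went from 1026 and 1689 in SB to 149 and 165 at 3 days and 422 and 360 at 7 days. Its log2 difference from SB was -3.06 at 3 days and -1.75 at 7 days, and it rose by 1.31 between them. CCL28, a mucosal chemokine, did not pass at 3 days and rose by 0.70 at 7 days against SB, with 130 and 105 in SB and 168 and 217 at 7 days, a call that depended on 7-day library 2. The other 2, CCL24 and CCL26, named after their values were seen, act on CCR3. CCL24 was at 35 and 31 in SB, 9 and 12 at 3 days and 65 and 50 at 7 days, and CCL26 at 8 and 3, 14 and 8, and 90 and 89. Both were highest at 7 days, as was CCL2. At 7 days against SB, CCL26 passed the limma test (log2 difference 3.91, adjusted p = 1.71e-05) and CCL24 did not (0.77, adjusted p = 0.0511).

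IL11, a cytokine of the IL6 family known for its part in fibrosis, rose more than any other of the 10 genes. It was at 13 and 8 normalized counts in SB, 385 and 443 at 3 days and 1045 and 869 at 7 days. The groups were far apart beside the spread within each, and the 3-day libraries lay between the other groups. The mean was 10.5 ± 3.54 in the SB libraries (SD, n = 2), 414 ± 41.0 after 3 days of TGFβ and 957 ± 124 after 7 days, and the TGFβ means were 39.4-fold and 91.1-fold the SB mean. The log2 difference was 5.20 (SE 0.219, adjusted p = 1.07e-08) at 3 days against SB, 6.41 (SE 0.219, adjusted p = 8.33e-10) at 7 days against SB and 1.20 (SE 0.219, adjusted p = 0.00189) at 7 days against 3 days. No alternative ended a call of IL11, and the differences from SB lay between 4.77 and 5.52 after 3 days and between 5.97 and 6.73 after 7 days. Of the fibrogenic genes that the study names, SNAI1, an EMT transcription factor, rose by a log2 difference of 1.88 at 3 days and 2.40 at 7 days, and HAS2, a hyaluronan synthase, did not pass at 3 days (0.17) and rose by 2.02 at 7 days. RREB1, a SMAD cofactor, did not pass at 3 days (0.14) and rose by 0.31 at 7 days, a call lost under 5 alternatives.

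IL6, an inducer of the acute phase response, was at 154 and 123 in SB, 243 and 238 at 3 days and 143 and 158 at 7 days. Both 3-day libraries were above the other 4, and the SB and 7-day libraries overlapped. Its log2 difference was 0.80 (SE 0.174, adjusted p = 0.00467) at 3 days against SB, 0.13 (95% interval -0.25 to 0.51, adjusted p = 0.562) at 7 days against SB and -0.67 (SE 0.174, adjusted p = 0.0120) at 7 days against 3 days. The last call was lost when any 1 of the 4 libraries compared was left out, with an adjusted p of up to 0.0932. Of the exon bases of IL6, 842 lie within the span of STEAP1B and 849 within that of IL6-AS1, introns included, on the opposite strand. Of 4462 stretches of 50 bases in IL6 transcripts, 331 were also found in IL6-AS1, where reads cannot be told apart. No such stretch was found in STEAP1B transcripts. STEAP1B, a gene of the STEAP family named for its overlap with IL6, was at 331 and 225 in SB, 455 and 461 at 3 days and 202 and 240 at 7 days. It too was highest in both 3-day libraries, and its part in the IL6 values was not tested.

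LIF, which keeps stem cells undifferentiated and acts through LIFR and IL6ST, was by far the most abundant of the 10. It was at 3529 and 4297 in SB, 2012 and 2134 at 3 days and 2490 and 2235 at 7 days. Every TGFβ library was below both SB libraries. The log2 difference of LIF was -0.91 (SE 0.109, adjusted p = 6.35e-05) at 3 days and -0.72 (SE 0.109, adjusted p = 0.000163) at 7 days against SB, and 0.19 (95% interval -0.05 to 0.42, adjusted p = 0.209) between 7 and 3 days. No alternative ended or made a call of LIF but the requirement of an absolute log2 difference over 1, which ended both. Of the exon bases of LIF, 86 and 83 lie within the spans of LIF-AS1 and LIF-AS2 on the opposite strand.

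Of the other cytokines of the IL6 family, CLCF1 and CTF1 were higher at 7 days than in SB. CLCF1, which signals through the ciliary neurotrophic factor receptor, was at 536 and 505 in SB, 585 and 656 at 3 days and 695 and 669 at 7 days, and rose by 0.39 at 7 days. That call was lost when either 7-day library was left out. CTF1 (cardiotrophin), named after its values were seen, was at 18 and 20 in SB, 23 and 29 at 3 days and 54 and 33 at 7 days. Its log2 difference at 7 days against SB was 1.11, a call that was not repeated under the alternatives. Of all genes tested, 27.7% were higher at 7 days than in SB. The gene of the ciliary neurotrophic factor receptor, CNTFR, was at 0 in every library.

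Levels of different genes were compared per kilobase (kb) of exon. The length was that of all annotated exons of a gene together, and not of 1 transcript, for example 4321 bases for IL6 and 1935 for CCL2. The order below holds for this length, and other lengths were not tried. In SB, LIF had 1011 normalized counts per kb, CXCL2 340, CXCL1 254, CCL20 48.0, CXCL3 47.1, IL6 32.1, CCL2 9.56, CXCL16 7.52, IL11 3.92 and CXCL5 2.46. Of neighbours in this order, the SB libraries overlapped between CXCL2 and CXCL1, between CCL20 and CXCL3, between CXCL3 and IL6 and between CCL2 and CXCL16. At 7 days of TGFβ, LIF was first with 610 and IL11 second with 357, followed by CXCL1 with 66.4, CXCL2 with 60.1, IL6 with 34.8, CCL2 with 25.8, CXCL3 with 21.6, CCL20 with 9.72, CXCL16 with 1.79 and CXCL5 with 0.616. There CXCL1 and CXCL2 were the neighbours whose libraries overlapped. IL11 was thus ninth of the 10 in SB and second at 7 days.

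**Figure D5:**
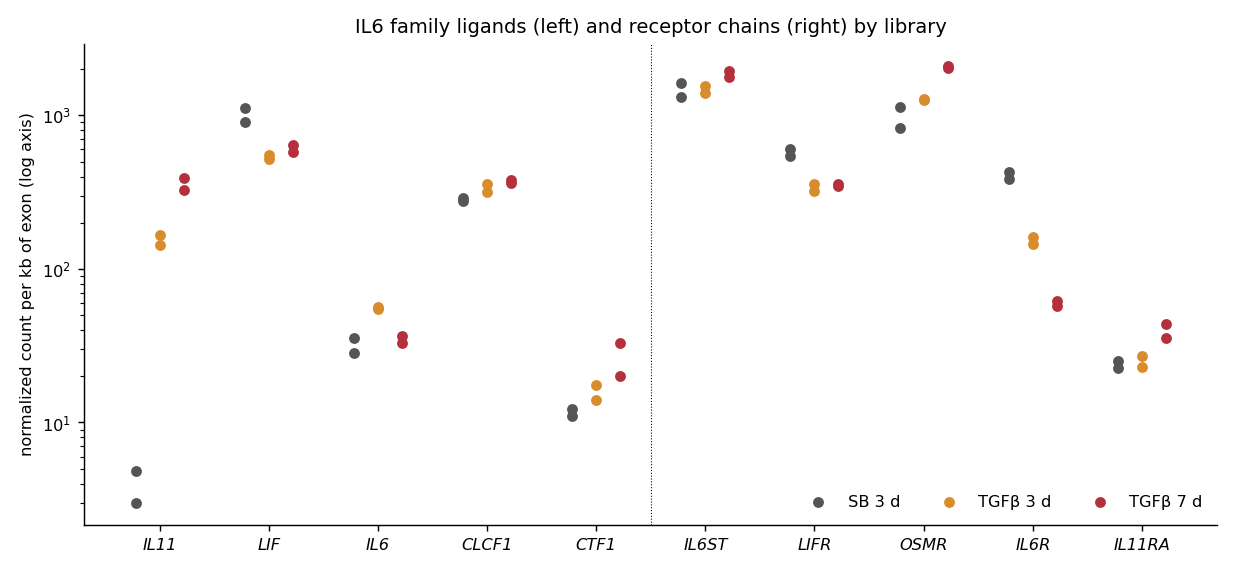
Normalized count per kb of exon (logarithmic vertical axis) of IL6 family ligands on the left and receptor chains on the right. Points are the 6 libraries, grey for SB at 3 days, orange for TGFβ at 3 days and red for TGFβ at 7 days. IL11 climbs from SB to 7 days while IL6R descends, and IL6ST stays high in all libraries.

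The receptor chains of the 3 cytokines did not move together. IL6R, the chain that binds IL6, was at 2979 and 2690 in SB, 1127 and 1022 at 3 days and 433 and 404 at 7 days. Its log2 difference was -1.40 at 3 days and -2.76 at 7 days against SB, and -1.36 between them, each past the test, with no overlap of the groups. LIFR, which binds LIF, was at 6580 and 7357 in SB, 4380 and 3891 at 3 days and 4203 and 4372 at 7 days, with log2 differences of -0.75 and -0.70. LIF and LIFR were thus both lower at both times. IL11RA, which binds IL11, was at 119 and 132 in SB, 120 and 143 at 3 days and 230 and 186 at 7 days, and rose by 0.72 at 7 days after a difference of 0.06 at 3 days that did not pass. The rise at 7 days was lost without 7-day library 1 (adjusted p = 0.0824). IL6ST, the shared chain, was at 15909 and 19481 in SB, 18655 and 16825 at 3 days and 21433 and 23480 at 7 days, and its rise of 0.35 at 7 days was lost under 4 alternatives, among them the fit without the filter (adjusted p = 0.0808). OSMR, the chain for oncostatin M, went from 5947 and 8152 in SB to 9210 and 9002 at 3 days and 14658 and 15089 at 7 days, and rose by 1.09 at 7 days.

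The receptors of the chemokines were at or near 0. CXCR1 and CXCR2 were at 1 or below in every library, CCR2 at 2 or below, CCR6 between 0 and 6, ACKR2 between 0 and 4 and ACKR3 between 0 and 4. CXCR6, the receptor of CXCL16, was at 14 and 12 in SB, 6 and 6 at 3 days and 3 and 5 at 7 days. None of these 7 was high enough to be tested. At this depth a transcript of a few counts could not be compared between groups.

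All 14 genes listed for JAK, STAT and SOCS signalling were tested. At 3 days against SB 3 were higher and 1 lower, at 7 days 5 were higher and 3 lower, and at 7 days against 3 days 3 were higher and 1 lower. These counts stand beside 29%, 54.5% and 33.2% of all genes tested, so this list passed about as often as genes in general. JAK1, a kinase that IL6ST uses, went from 3889 and 4270 in SB to 6493 and 5965 at 3 days and 7120 and 7309 at 7 days, and rose by 0.61 and 0.82. PIAS3, which restrains STAT3, rose by 0.39 at 3 days and 0.86 at 7 days, and GAB1, an adaptor below these receptors, did not pass at 3 days (0.39) and rose by 0.98 at 7 days. SOCS3, the feedback inhibitor that STAT3 induces, was at 511 and 677 in SB, 474 and 464 at 3 days and 440 and 330 at 7 days. It fell by 0.62 at 7 days, a call that was lost without SB library 2, without 7-day library 2 and without the filter.

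All 16 genes of NF-κB and its feedback were tested. At 3 days against SB none was higher and 6 were lower, at 7 days 1 was higher and 6 lower, and at 7 days against 3 days 2 were higher and 3 lower. Over all genes tested, 29%, 54.5% and 33.2% passed, with 14%, 26.9% and 16.2% lower. TNFAIP3, an NF-κB target that shuts the pathway off, went from 2798 and 3001 in SB to 1730 and 1695 at 3 days and 968 and 988 at 7 days, with log2 differences of -0.76 and -1.57. IKBKB, the kinase that frees NF-κB, fell at both times, with log2 differences of -0.88 and -0.81. BIRC3, a survival gene and NF-κB target, was at 853 and 1392 in SB and 661 and 651 at 7 days, and fell by 0.73, which no longer passed without the filter or without the trend of the variance on the mean. It was -1.08 without SB library 1 and -0.38 without SB library 2. NFKBIZ, a nuclear cofactor of NF-κB, was at 1958 and 3733 in SB, 2953 and 2791 at 3 days and 4334 and 5065 at 7 days, so the 3-day libraries lay between the SB libraries, and it rose by 0.79 at 7 days, which was 0.33 without SB library 1 and 1.26 without SB library 2 and no longer passed without 7-day library 2, without the filter or without that trend.

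Of 18 genes that feed into NF-κB through IL1 and TNF, 12 were tested. At 3 days 2 were higher and 4 lower than SB, and at 7 days 5 were higher and 6 lower, beside 29% and 54.5% of all genes tested that passed. IL1R1, the receptor of IL1, was at 2172 and 2925 in SB, 1018 and 935 at 3 days and 830 and 736 at 7 days, with log2 differences of -1.37 and -1.69. IL1A, its ligand, was at 67 and 140 in SB, 92 and 72 at 3 days and 264 and 264 at 7 days, and rose by 1.44 at 7 days, with a difference of 0.91 without SB library 1 and 1.96 without SB library 2. IRAK2 rose by 0.91 and IRAK1 fell by 0.82 at 7 days, both kinases below IL1R1. The receptor was thus lower and the ligand higher at 7 days.

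Of 5 C/EBP genes, 4 were tested. At 3 days 1 was lower than SB, and at 7 days 1 was higher and 2 were lower. CEBPD, a factor that acts with NF-κB on cytokine genes, was at 231 and 478 in SB, 94 and 90 at 3 days and 84 and 79 at 7 days, with log2 differences of -1.84 and -2.02. Its SB libraries were 2.07-fold apart, in the same direction as those of CXCL1 and CXCL2, and without SB library 2 its differences were -1.32 and -1.49. CEBPB rose by 0.47 and DDIT3 fell by 0.45 at 7 days, each call lost without 7-day library 1. Of 9 genes of cytokine mRNA decay, all tested, 1 was higher and 3 lower at 3 days, and 3 were higher and 5 lower at 7 days. The C/EBP and decay counts stand beside 29% and 54.5% of all genes tested that passed at 3 and 7 days. ZFP36, which targets AU-rich cytokine mRNAs for decay, fell at 3 days (-0.72) and at 7 days (-1.08), KHSRP fell by 0.73 and HNRNPD fell by 0.67 at 7 days, and ZFP36L1, a relative of ZFP36, rose by 0.60.

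The genes whose pattern was nearest to IL11 and to CXCL2 were sought among 11388 genes that averaged at least 100, by the Euclidean distance of their centred log2 values over the 6 libraries, as a description with no test. Nearest to IL11 was PMEPA1, a feedback inhibitor of TGFβ signalling, at a distance of 0.205, with 320 and 193 in SB, 9312 and 9610 at 3 days and 21675 and 21001 at 7 days. It was followed by LTBP2, a protein of the extracellular matrix (0.716), and KLHDC8A (0.861). Nearest to CXCL2, the other of the 10 genes with the largest difference at 7 days, was CEBPD (0.467), followed by B3GNT6, a glycosyltransferase (0.631), and MYO5B, a motor of apical membrane traffic (0.638). B3GNT6 was at 164 and 267 in SB and 56 and 55 at 7 days, and MYO5B at 1302 and 1899 in SB and 273 and 258 at 7 days. All 3 were higher in SB library 2 than in SB library 1, as CXCL2 was. The distance counts the gap within the SB pair, so this likeness follows from the way the genes were sought.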

How the data were processed

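PolyA RNA of 6 H2087-LCC libraries, 3 groups of 2, was prepared with a TruSeq v2 kit, which does not mark strand. The authors mapped paired reads to hg19 with STAR, used HTSeq to count uniquely mapped reads on each gene, and scaled the counts to the size of each library. The deposited values are whole numbers, recorded here as a score because they are normalized counts that the authors rounded. They are not read counts, so the negative binomial test of the study was not used. The worth of 1 read, 0.896 to 1.10 normalized counts, was estimated from the low values of each library.

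Here log2(normalized count + 1) of the 14395 genes that averaged at least 10 was fitted with limma 3.58.1 (R 4.3.3, empirical Bayes with a trend), 1 fit of 6 libraries with 3 residual degrees of freedom, adjusted by Benjamini-Hochberg at 0.05 over all genes tested in each comparison. With 2 libraries against 2, an exact permutation test cannot go below p = 0.333, so none was run. The steps were tested on simulated data. Alternatives were pseudocounts of 0.5 and 5, no filter or a mean of at least 50, other scalings, limma without the trend, the 4 libraries compared, the replicate block, each library left out, and a fold limit.

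The members and lists were chosen with earlier results of these data known. Named were all members, their receptors, the study's fibrogenic genes and the treatment check, up to 4 genes of each other list that passed at 7 days against SB with a mean of at least 100 (largest differences), and the 3 genes nearest to IL11 and to CXCL2. Some genes of these lists are not reported here. Gene positions came from GENCODE on GRCh37 and promoters from RefSeq. The plots were made in Python 3.11.15 (matplotlib 3.10.9).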

Additional observations from a re-analysis of the deposited data

Results flagged for a closer look

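Levels differed between 7 and 3 days of TGFβ for 4 of the 10 genes, by the limma test of 7 days against 3 days, in which the length of treatment and the time in culture cannot be told apart. IL11 was 1.20 higher on the log2 scale at 7 days (adjusted p = 0.00189), with both 7-day libraries above both 3-day libraries. CCL2 was 1.82 higher at 7 days (adjusted p = 0.00650), likewise in both libraries. CCL20 was lower at 7 days, with a log2 difference of -1.36 (adjusted p = 0.00295) and both libraries below those of 3 days. IL6 was lower at 7 days, with a log2 difference of -0.67 (adjusted p = 0.0120), also in both libraries. Of all genes tested, 33.2% passed this test.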

How the results depend on the processing

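Of 378 repeats of the members' log2 differences under the alternatives, 359 stayed on their side of the threshold, 18 kept the direction and lost the call, and 1 gained one. No difference that had passed the test changed direction in any of these repeats. The lost calls were those of CXCL3 and CCL20 at 3 days, CXCL3 at 7 days, CCL2 without the filter and IL6 between 7 and 3 days; the gained one was CXCL2 between 7 and 3 days without SB library 1. With a mean of at least 50, CCL2 and CCL20 were not tested, and 2 members in place of 4 passed at 7 days against 3 days. With an absolute log2 difference over 1 required as well, 4 members in place of 7 passed at 3 days against SB, and 1267, 2400 and 940 of all genes passed in the 3 comparisons. Over all genes, 3042 passed at 7 days against 3 days without the filter and 3122 without the trend; the cause was not tested. Leaving out each library in turn gave 5 to 7 members and 2607 to 3906 genes at 3 days against SB, 6 to 7 members and 5885 to 7681 genes at 7 days against SB, and 3 to 5 members and 2296 to 5604 genes at 7 days against 3 days. NFKBIZ at 3 days against SB turned from 0.09 to -0.38 without SB library 1 (adjusted p = 0.0327) and was 0.55 without SB library 2; the cause was not tested. With equal library totals, 1819 genes were higher and 2552 lower at 3 days. Deviations within pairs correlated at 0.208 between SB and 3 days, -0.13 between SB and 7 days and -0.65 between 3 and 7 days. The replicate numbers thus did not pair the libraries in the same direction. The -0.65 means that genes higher in library 2 at 3 days tended to be lower in library 2 at 7 days. The cause was not tested. The replicate block joins libraries of the same number and so cannot take up that crossed pattern. With it, 3943, 7546 and 4485 genes passed, and no member's call changed. Counting noise limits CXCL5 and CXCL16, and the spread within the SB pair limits CXCL1, CXCL2, CXCL3 and CCL2.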
